A study of Mus musculus with 12 samples.

Results

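The genes described here are those of ATP synthase and of cytochrome c oxidase, apart from the cytochrome oxidase subunits that come in muscle and ubiquitous forms. They were taken from the count table by symbol: every row starting with Atp5, or with Cox and a digit, and Sco1, Sco2 and Surf1, without Cox4i1, Cox4i2, Cox6a1, Cox6a2, Cox7a1, Cox7a2, Cox7a2l, Cox8a, Cox8b and Cox8c. This gave 38 of the 25171 rows, under 37 symbols, since Atp5o is listed under 2 identifiers. Of these rows 18 are Atp5 genes, 17 are Cox genes and 3 are Sco1, Sco2 and Surf1.

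Bulk RNA of 12 mouse hearts was sequenced, with 3 hearts, labelled as biological replicates, in each of 4 groups. All 4 groups carry NOTCH2NLC with 98 GGC repeats, placed at Rosa26 behind a stop sequence that Cre recombinase removes, which is a model of the repeat expansion of neuronal intranuclear inclusion disease. EIIa-tg mice also carry EIIa-Cre, which acts throughout the body, and their littermates that lacked this Cre served as EIIa-ctl, both collected at postnatal day 30. Myh6-tg and Myh6-ctl mice both carry the genotype named myh6 transgenic in the labels, with a tamoxifen-inducible Cre driven by the Myh6 promoter and therefore made in cardiomyocytes. Myh6-tg mice were given 3 injections of tamoxifen at 75 mg per kg in corn oil on alternate days from day 60, Myh6-ctl mice were given the corn oil alone, and both were collected at day 90. The strain background is not given in the sources used here.

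ATP synthase, complex V of the respiratory chain, is a rotary enzyme of the inner mitochondrial membrane. Protons that flow back through the membrane turn a ring of c subunits, the ring turns a central stalk inside the catalytic F1 head, and the head makes ATP from ADP and phosphate while a peripheral stalk holds it still. Cytochrome c oxidase, complex IV, passes electrons from cytochrome c to oxygen and pumps protons, and its core carries heme A and copper that dedicated assembly factors insert. Most subunits of both enzymes are encoded in the nucleus, the core subunits mt-Co1, mt-Co2, mt-Co3, mt-Atp6 and mt-Atp8 are encoded in mitochondrial DNA, and cardiomyocytes, which are dense in mitochondria, express both sets at high levels.

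Between 38343106 and 50969834 reads were counted per heart, of which the 38 rows took 1.21% to 1.68% in control hearts, 1.38% to 1.58% in EIIa-tg and 0.738% to 1.08% in Myh6-tg hearts. The protein-coding genes of mitochondrial DNA took 31.8% to 38.3% of the counts in control hearts, 28.5% to 32.3% in EIIa-tg and 15.5% to 18.6% in Myh6-tg hearts. Replicate 1 of each group carried Y-linked counts (4224 to 7307) and the other hearts did not (2 at most). NOTCH2NLC itself was not analysed here. Esr1, the estrogen receptor from which the tamoxifen switch of creERT2 is derived, was at 1031 to 2331 normalised CPM in the hearts labelled Myh6-ctl and at 1.0 to 2.52 normalised CPM in those labelled Myh6-tg, although the labels give both groups the same genotype. The names Myh6-ctl and Myh6-tg below therefore stand for the hearts so labelled. The extract protocol names brain tissue, while the 11 cardiomyocyte markers summed to 12900 to 64500 normalised CPM and 5 brain markers to 11 to 45.1 normalised CPM. Normalised CPM are counts divided by library size in CPM, scaled further by the trimmed mean of M values (TMM) over all 12 hearts.

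The 3 c-ring genes Atp5g1, Atp5g2 and Atp5g3 are shown in sequence because the results compare the share of each in their summed RNA. In mammals they encode the same mature c subunit and differ in the leader that brings it into mitochondria, so that their mRNAs are told apart by silent changes and by the other parts of the transcript. The last 90 coding bases of each are given 5′ to 3′ as in the GENCODE M21 transcripts, with capitals at the 24 positions where the 3 genes do not all have the same base.
Atp5g1: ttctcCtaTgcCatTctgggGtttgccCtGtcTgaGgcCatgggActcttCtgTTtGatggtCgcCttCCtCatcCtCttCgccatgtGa
Atp5g2: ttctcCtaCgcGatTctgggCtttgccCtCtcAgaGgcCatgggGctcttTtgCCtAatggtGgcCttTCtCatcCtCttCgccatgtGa
Atp5g3: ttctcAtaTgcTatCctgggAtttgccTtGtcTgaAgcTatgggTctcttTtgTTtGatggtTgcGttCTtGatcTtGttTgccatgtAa
These stretches lie on the minus strand of GRCm38 at chr11:96073104-96073193 (Atp5g1, exon 4 of 4), chr15:102663014-102663103 (Atp5g2, exon 5 of 5) and chr2:73908593-73908682 (Atp5g3, exon 5 of 5), each in the coding part of the last exon. Over the last 228 coding bases, which hold the mature subunit and the stop codon, Atp5g1 and Atp5g2 were 85.1% identical, Atp5g1 and Atp5g3 79.8%, and Atp5g2 and Atp5g3 78.5%.

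In the hearts labelled Myh6-tg, genes of both enzymes were lower than in those labelled Myh6-ctl. By the labels, these groups differ at once in tamoxifen, in activation of the Cre and in the repeat it turns on, which cannot be told apart. The Cre and the repeat it turns on also differ together in the EIIa model. Of the 36 members with enough counts to test, 15 (41.7%) were lower at an adjusted p under 0.05 in edgeR's quasi-likelihood test, beside 9.38% of all 15298 genes tested, and 0 were higher, beside 8.96% of all genes. Of the 15, 10 were genes of ATP synthase, 3 were subunits of cytochrome oxidase and 2 were assembly factors. The median log2 fold change was -0.91 over the 36 members and 0.03 over all genes tested, and 34 of the 36 estimates were negative. On the scale of log2(FPKM + 1) with limma the medians were -0.49 and 0.34. A fall of this kind in bulk tissue cannot tell fewer cells of a type from less RNA per cell. By the thresholds of the study for a differentially expressed gene (DEG), an adjusted p under 0.01 with a log2 fold change of 1 or more in either direction, Cox14 alone was a lower DEG, beside 2.05% of all genes, and no member was a higher DEG, beside 1.92%.

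The number of members that passed in the Myh6 comparison depended on the hearts and on the fit, as did the share of all genes that passed. Leaving out Myh6-ctl replicate 1, Myh6-tg replicate 2 or Myh6-tg replicate 3 left 2 lower members each, beside 2.58%, 3.09% and 3.00% of all genes. Leaving out Myh6-ctl replicates 2 or 3 left 5 and 9, beside 5.73% and 5.98%, and leaving out Myh6-tg replicate 1 gave 24, beside 13.9%. With the replicate number as a block, which treats hearts of the same number as pairs, 23 members were lower, beside 11.2% of all genes, and 5 were DEGs. The labels do not give such a pairing, which was read from the same counts, so blocked p values below are an alternative and not separate support. In the EIIa model the same block left 0 members lower and 0 higher, beside 0% and 0.00671% of all genes. DESeq2 called 24 lower, beside 12.3%, and 15 DEGs. For the blocked and DESeq2 fits the share of all genes that were DEGs was not counted, so these DEG counts cannot set the members apart from other genes. Cox14 passed with each of the 6 hearts left out in turn, Atp5e in 5 of the 6 and Atp5g1 in 4 of the 6. Atp5j2 and Atp5k passed in 3 of the 6, and Atp5f1, Cox6c, Cox7b and Cox7c in 2. The rest of the 15, Atp5c1, Atp5h, Atp5mpl, Atp5o, Atp5s and Cox15, passed in only 1 of the 6.

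**Figure D1:**
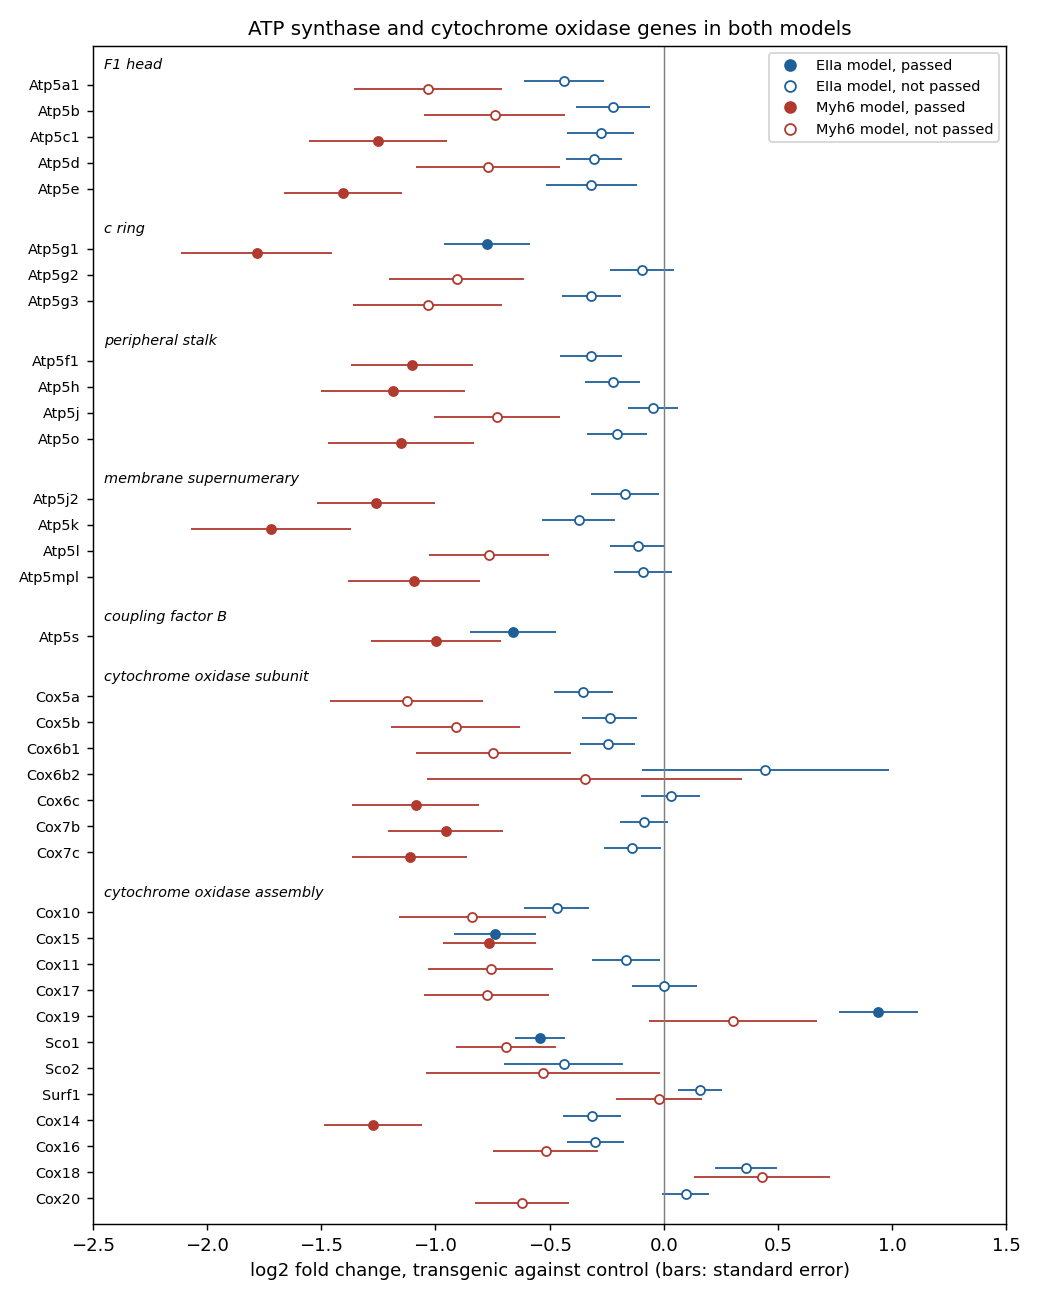
Log2 fold changes (horizontal axis) of the 36 tested members by role, in the EIIa model (blue) and the Myh6 model (red), with bars for the standard error of the edgeR fit and filled circles for an adjusted p under 0.05. In the Myh6 model 34 of 36 estimates lie left of 0 and 15 are filled, and in the EIIa model 29 lie left of 0 and 5 are filled.

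The F1 head is built from the alpha and beta subunits, which form the catalytic sites, and from gamma, delta and epsilon, which form the central stalk. Atp5a1 (alpha) had 4538, 3856 and 4652 normalised CPM in EIIa-ctl and 3150, 3754 and 2747 in EIIa-tg, with 3750, 3704 and 2741 in Myh6-ctl and 2324, 1457 and 1201 in Myh6-tg. Every transgenic heart was below every control heart of its own model, although in FPKM the EIIa groups overlapped. The log2 fold change was -0.44 (standard error 0.18, adjusted p = 0.119) in the EIIa model and -1.03 (standard error 0.32, adjusted p = 0.0627) in the Myh6 model, where the blocked fit gave an adjusted p of 0.0224. Atp5b (beta) had 5004, 4356 and 5040 normalised CPM in EIIa-ctl and 4111, 4543 and 3710 in EIIa-tg, with 4177, 4263 and 3178 in Myh6-ctl and 3110, 2105 and 1743 in Myh6-tg. Its EIIa groups overlapped and its Myh6 groups did not, by a margin of 3110 to 3178 normalised CPM, and in FPKM the groups of both models overlapped. The log2 fold changes of Atp5b were -0.22 (standard error 0.16, adjusted p = 0.364) and -0.74 (standard error 0.31, adjusted p = 0.136, or 0.0571 with the block).

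Of the central stalk, Atp5e and Atp5c1 fell in Myh6-tg hearts. Atp5e, the epsilon subunit, had 69.8, 119.9 and 76.5 normalised CPM in Myh6-ctl and 28.6, 40.8 and 31.0 in Myh6-tg, and 73.2, 93.9 and 101.4 in EIIa-ctl and 92.3, 70.2 and 53.5 in EIIa-tg. The Myh6 groups were apart and the EIIa groups overlapped. Its log2 fold change was -1.41 (standard error 0.26, adjusted p = 0.0124) in the Myh6 model, 0.377 of the control level, and -0.32 (standard error 0.20, adjusted p = 0.297) in the EIIa model. Atp5c1, the gamma subunit that turns inside the head, changed by -1.25 on the log2 scale in the Myh6 model (adjusted p = 0.0282), and Atp5d, the delta subunit, was at -0.77 (adjusted p = 0.129).

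The ratio of beta to alpha was also compared within each heart. Measured in FPKM, which is scaled to transcript length and so allows genes to be compared, Atp5b per Atp5a1 was 1.42, 1.46 and 1.40 in EIIa-ctl and 1.68, 1.56 and 1.74 in EIIa-tg, with 1.44, 1.48 and 1.5 in Myh6-ctl and 1.73, 1.86 and 1.87 in Myh6-tg. All 6 transgenic hearts lay above all 6 control hearts. This ratio was chosen after its values were seen and was not tested.

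Among the c-ring genes Atp5g1 was lower in both models. It had 646, 629 and 696 normalised CPM in EIIa-ctl and 358, 498 and 297 in EIIa-tg, with 595, 718 and 451 in Myh6-ctl and 242, 160 and 111 in Myh6-tg. Neither pair of groups overlapped. Its log2 fold change was -0.77 (standard error 0.19, adjusted p = 0.0316) in the EIIa model, a level of 0.585 of control, and -1.78 (standard error 0.33, adjusted p = 0.0128) in the Myh6 model, a level of 0.291. With 1 heart left out in the EIIa model it passed only without EIIa-tg replicate 2, the transgenic heart with the highest Atp5g1, and over the 6 hearts left out in turn its log2 fold change ran from -1.02 to -0.61.

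Atp5g3, the most abundant of the 3, had 1089, 1044 and 1174 normalised CPM in EIIa-ctl and 946, 932 and 780 in EIIa-tg, with 890, 1280 and 633 in Myh6-ctl and 570, 468 and 333 in Myh6-tg. The groups of each model were apart in normalised CPM, while in FPKM the EIIa groups overlapped (1294 to 1433 against 1171 to 1296). Its log2 fold changes were -0.32 (standard error 0.13, adjusted p = 0.120) and -1.03 (standard error 0.33, adjusted p = 0.0639, or 0.0260 with the replicate block). Atp5g2 had 150, 151 and 182 normalised CPM in EIIa-ctl and 174, 154 and 125 in EIIa-tg, with 137, 235 and 135 in Myh6-ctl and 114, 89.5 and 66.6 in Myh6-tg. Its groups overlapped in the EIIa model and were apart in the Myh6 model, where they overlapped in FPKM. The log2 fold changes of Atp5g2 were -0.09 (standard error 0.14, adjusted p = 0.676) and -0.91 (standard error 0.30, adjusted p = 0.0706, or 0.0484 with the block).

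A share within a heart does not depend on how libraries were scaled, so the c-ring genes were also compared by their shares of the summed c-ring FPKM. Atp5g1 made up 34.6%, 35.1% and 34.5% of the sum in EIIa-ctl and 23.8%, 31.2% and 23.2% in EIIa-tg, with 37.4%, 32.5% and 38.2% in Myh6-ctl and 26.7%, 22.0% and 20.2% in Myh6-tg. Every transgenic heart was below every control heart, of either model. Atp5g3 made up 57.0% ± 0.456 (SD, n = 3 here and below) of the sum in EIIa-ctl hearts, 63.2% ± 3.69 in EIIa-tg, with 54.1% ± 3.03 in Myh6-ctl and 64.4% ± 2.90 in Myh6-tg. Atp5g2 made up 8.31% ± 0.437, 10.7% ± 1.08, 9.83% ± 1.39 and 12.7% ± 0.539 in the same order, with Myh6-ctl replicates 2 and 3 (10.5% and 10.8%) inside the range of EIIa-tg. The summed FPKM of the 3 genes was 2251 to 2526 in EIIa-ctl and 1770 to 2141 in EIIa-tg, with 1763 to 2528 in Myh6-ctl and 893 to 1390 in Myh6-tg. These are shares of RNA, given as descriptions with no test, and the protein of the ring was not measured.

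**Figure D2:**
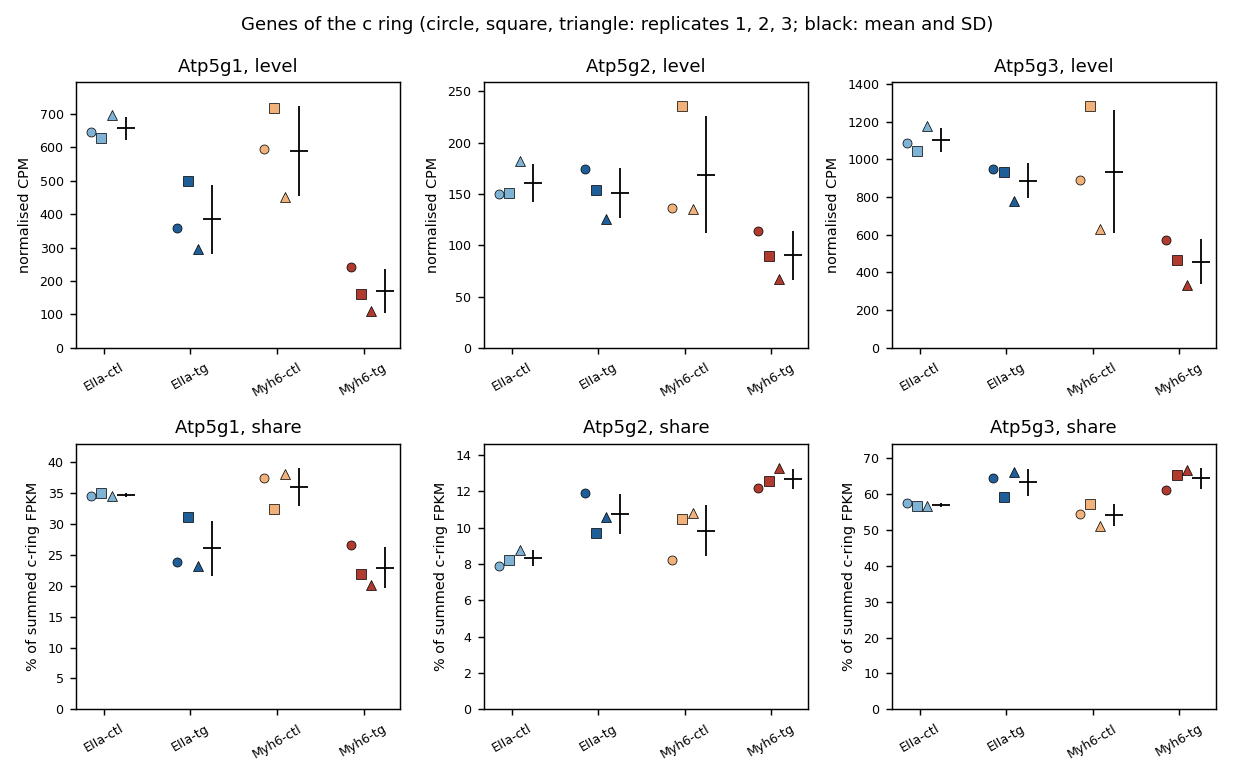
Levels of the 3 c-ring genes in normalised CPM (upper row) and their shares of the summed c-ring FPKM in percent (lower row) in each heart, with black marks for the mean and SD of 3 hearts. The Atp5g1 share is 20.2% to 31.2% in the 6 transgenic hearts and 32.5% to 38.2% in the 6 control hearts.

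Of the peripheral stalk, Atp5f1 (subunit b), Atp5h (subunit d) and Atp5o (the OSCP subunit that caps the head) fell in the Myh6 model, with log2 fold changes of -1.10, -1.18 and -1.15 and adjusted p values of 0.0284, 0.0379 and 0.0441. Atp5j, coupling factor 6, was at -0.73 (adjusted p = 0.106). None of these 4 passed in the EIIa model, where their estimates ran from -0.32 to -0.05.

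The small membrane subunits support the packing of ATP synthase into rows of dimers along the cristae. Atp5k, subunit e, had 10.2, 19.3 and 8.03 normalised CPM in Myh6-ctl and 4.08, 3.93 and 3.37 in Myh6-tg, and 11.7, 11 and 14.9 in EIIa-ctl and 11, 9.57 and 8.57 in EIIa-tg. The Myh6 groups were apart, with Myh6-ctl replicate 2 far above the other control hearts. Its log2 fold change was -1.72 (standard error 0.35, adjusted p = 0.0165), or 0.303 of control, and it passed with 3 of the 6 hearts left out. Without Myh6-ctl replicate 2 it was at -1.27 (adjusted p = 0.0333). In the EIIa model Atp5k was at -0.37 (standard error 0.16, adjusted p = 0.138). Atp5j2 (subunit f) and the proteolipid Atp5mpl also fell in the Myh6 model, by 1.26 and 1.09 on the log2 scale (adjusted p = 0.0166 and 0.0373), while Atp5l (subunit g) was at -0.76 (adjusted p = 0.0817).

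Atp5s, named coupling factor B and not a structural subunit, fell in both models. It ranged from 22.5 to 24.4 normalised CPM in EIIa-ctl and 10.9 to 18.9 in EIIa-tg, with 14.8 to 22.2 in Myh6-ctl and 6.76 to 13.1 in Myh6-tg, with no overlap in either model. Its log2 fold changes were -0.66 (standard error 0.19, adjusted p = 0.0475) and -0.997 (standard error 0.28, adjusted p = 0.0470). With limma on log2(FPKM + 1) they were -0.46 and -0.59 (adjusted p = 0.0691 and 0.0603), which did not pass.

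Of the 7 tested cytochrome oxidase subunits, Cox6c, Cox7b and Cox7c, which surround the catalytic core, fell in the Myh6 model by 1.09, 0.95 and 1.11 on the log2 scale (adjusted p = 0.0342, 0.0370 and 0.0228). In the EIIa model the 3 genes were at 0.03, -0.09 and -0.14, with adjusted p values of 0.474 or more. Cox5a, which joins the complex early in its assembly, had 440, 453 and 505 normalised CPM in EIIa-ctl and 383, 404 and 311 in EIIa-tg, with 357, 609 and 281 in Myh6-ctl and 232, 201 and 139 in Myh6-tg. Transgenic and control hearts did not overlap in either model in normalised CPM, and did in the EIIa model in FPKM. Cox5a was at -0.35 (standard error 0.13, adjusted p = 0.0957) in the EIIa model and at -1.13 (standard error 0.33, adjusted p = 0.0535, or 0.0233 with the block) in the Myh6 model.

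Cox5b, which binds zinc on the matrix side, had 246, 269 and 287 normalised CPM in EIIa-ctl and 244, 241 and 197 in EIIa-tg, with 232, 312 and 180 in Myh6-ctl and 162, 129 and 94.0 in Myh6-tg. The groups were apart in both models, in the EIIa model by less than 2 normalised CPM, and there they overlapped in FPKM. Its log2 fold changes were -0.24 (standard error 0.12, adjusted p = 0.201) and -0.91 (standard error 0.28, adjusted p = 0.0594, or 0.0260 with the block). Cox6b1, the subunit that faces the intermembrane space, was at -0.25 and -0.75 (adjusted p = 0.189 and 0.166).

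Cox6b2 and Cox7b2 are the testis forms of subunits 6b and 7b and were close to absent. Cox6b2 was at 0.000759 to 0.00771 of the FPKM of Cox6b1, with estimates of 0.45 and -0.35 and standard errors of 0.54 and 0.69. Cox7b2 had 11 counts in EIIa-tg replicate 2, 5 counts in Myh6-tg replicate 2 and 0 counts in the other 10 hearts, where 3 counts would be 0.0589 to 0.0742 CPM. The row of Atp5o with identifier ENSMUSG00000116933 had 0 counts in all 12 hearts, and 89.8% of its transcript's 50-base words also occur in transcripts of other genes. These 2 rows, Cox7b2 and the second Atp5o row, were left out by the filter on low counts.

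Among the 12 assembly factors of cytochrome oxidase, Cox14 fell most in the Myh6 model. Cox14 holds newly made mt-Co1 protein in an assembly intermediate. It had 51.6, 57.3 and 57.2 normalised CPM in EIIa-ctl and 49.8, 47.3 and 37.0 in EIIa-tg, with 56.1, 65.7 and 40.4 in Myh6-ctl and 20.9, 24.9 and 21.3 in Myh6-tg. Transgenic hearts were below control hearts in both models, with a gap of 24.9 to 40.4 normalised CPM in the Myh6 model and an overlap in FPKM in the EIIa model. Its log2 fold change was -1.27 (standard error 0.22, adjusted p = 0.00986), or 0.414 of control, in the Myh6 model, and -0.31 (standard error 0.13, adjusted p = 0.121) in the EIIa model.

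Cox10 and Cox15 act in succession to make heme A, the cofactor of mt-Co1. Cox15 had 54.7, 43.3 and 49.3 normalised CPM in EIIa-ctl and 27.4, 37.5 and 23.4 in EIIa-tg, with 43.7, 34.4 and 34.9 in Myh6-ctl and 26.9, 21.4 and 18.2 in Myh6-tg. It fell in both models, by 0.74 (standard error 0.18, adjusted p = 0.0322) and 0.76 (standard error 0.20, adjusted p = 0.0377) on the log2 scale, with no overlap in either in normalised CPM. In the Myh6 model its FPKM overlapped (5.79 to 7.76 against 4.86 to 5.99), limma on log2(FPKM + 1) gave -0.32 (adjusted p = 0.220), and with 1 heart left out it passed in 1 of the 6 fits. Cox10 had 59.0, 45.9 and 59.2 normalised CPM in EIIa-ctl and 41.2, 44.1 and 33.5 in EIIa-tg, with 52.7, 36.8 and 38.6 in Myh6-ctl and 36.6, 17.3 and 17.8 in Myh6-tg. The groups did not overlap in normalised CPM in either model and overlapped in FPKM in both, and Myh6-tg replicate 1 came within 1 normalised CPM of the lowest control. Cox10 was at -0.47 (standard error 0.14, adjusted p = 0.0567) in the EIIa model and at -0.84 (standard error 0.32, adjusted p = 0.110, or 0.0208 with the block) in the Myh6 model.

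Cox11, Cox17, Cox19, Sco1 and Sco2 bring copper to the enzyme. Sco1, which passes copper to the mt-Co2 centre, had 17.3, 17.0 and 15.9 normalised CPM in EIIa-ctl and 11.1, 12.2 and 11.2 in EIIa-tg, with 14.5, 12.7 and 9.87 in Myh6-ctl and 6.83, 8.18 and 7.99 in Myh6-tg. Transgenic hearts lay below control hearts in both models in normalised CPM, while in FPKM the Myh6 groups overlapped (4.16 to 5.13 against 3.05 to 4.23). Sco1 fell by 0.54 (standard error 0.11, adjusted p = 0.0221) in the EIIa model on the log2 scale, and was at -0.69 (standard error 0.22, adjusted p = 0.0651, or 0.0899 with the block) in the Myh6 model. With limma on log2(FPKM + 1) it was at -0.29 (adjusted p = 0.0572) and -0.22 (adjusted p = 0.405). Sco2 was at -0.44 and -0.53 with standard errors of 0.26 and 0.51. Cox11 and Cox17 were at -0.17 and 0.00 in the EIIa model and at -0.76 and -0.78 in the Myh6 model (adjusted p = 0.0921 and 0.0870).

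Cox19, a soluble copper-binding protein that acts on Cox11, was the only member that rose in either model by edgeR. With limma on log2(FPKM + 1) Cox18 also passed as higher in both models and Surf1 in the EIIa model. Those limma fits called 3 members and 18.6% of all genes higher in the EIIa model, and 1 member and 25.7% in the Myh6 model. Cox19 had 24.6, 36.8 and 31.6 normalised CPM in EIIa-ctl and 63.8, 47.9 and 67.4 in EIIa-tg, and 36.9, 62.6 and 42.3 in Myh6-ctl and 29.5, 75.8 and 69.6 in Myh6-tg. The EIIa groups were apart, while in the Myh6 model replicate 1 of Myh6-tg lay below and the other 2 hearts above all controls. Its log2 fold change was 0.94 (standard error 0.17, adjusted p = 0.0186), or 1.92 times control, in the EIIa model, and 0.30 (standard error 0.37, adjusted p = 0.606) in the Myh6 model. Cox18, which inserts mt-Co2 into the membrane, was also at positive values, 0.36 (adjusted p = 0.102) and 0.43 (adjusted p = 0.347). Surf1, a factor of early assembly whose loss in people causes Leigh syndrome, was at 0.16 and -0.02 (adjusted p = 0.282 and 0.954), and Cox16 and Cox20, which act on mt-Co2, were at -0.30 and 0.10 in the EIIa model and at -0.52 and -0.62 in the Myh6 model, without passing.

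**Figure D3:**
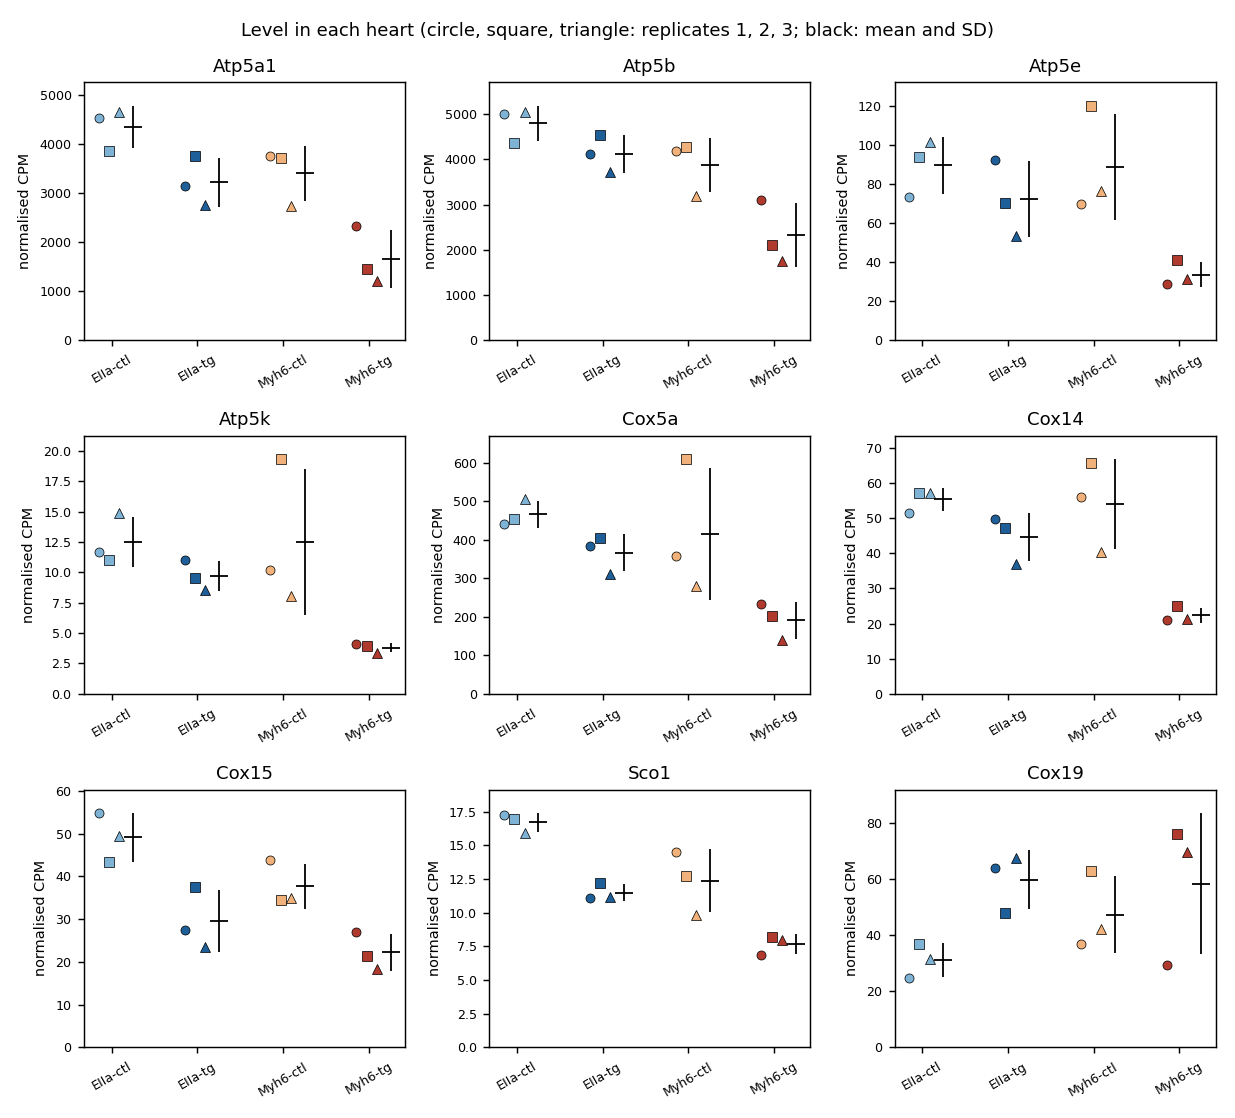
Normalised CPM of 9 members in each of the 12 hearts (vertical axes from 0), with black marks for the mean and SD of 3 hearts. Atp5a1, Atp5b, Atp5e, Atp5k, Cox5a, Cox14 and Sco1 are lower in all 3 Myh6-tg hearts than in any other heart shown. Cox19 is higher in the 3 EIIa-tg hearts (47.9 to 67.4) than in EIIa-ctl (24.6 to 36.8).

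In the EIIa comparison as a whole, 4 of the 36 members (11.1%) were lower at an adjusted p under 0.05, beside 8.30% of all 14908 genes tested, and 1 member (2.78%) was higher, beside 8.65%. The share of lower members is near that of all genes, and the share of higher members is below it. The median log2 fold change was -0.23 over the members and 0.02 over all genes, or -0.04 and 0.16 on the log2(FPKM + 1) scale, and by edgeR all 17 tested ATP synthase genes had negative estimates between -0.77 and -0.05. By edgeR no gene tested was a DEG in this comparison in either direction (0% higher and 0% lower), while 15 members (41.7%) had an unadjusted p under 0.05, beside 34.9% of all genes. DESeq2 called 8 members lower, beside 10.9% of all genes, Cox19 higher, beside 11.2%, and 0 members DEGs. The share of all genes that were DEGs by DESeq2 was not counted. The number of calls over the whole table changed with the heart left out. Without EIIa-ctl replicate 1, EIIa-ctl replicate 3, EIIa-tg replicate 1 or EIIa-tg replicate 3, 0 members passed, and 0% to 0.191% of all genes were lower and 0% to 0.686% higher. Without EIIa-tg replicate 2, 9 members were lower, beside 13.8% of all genes. Cox19 passed with EIIa-ctl replicate 2 or EIIa-tg replicate 2 left out, and its log2 fold change ran from 0.80 to 1.08 over the 6 hearts left out. Atp5g1, Atp5s and Cox15 passed in both models by edgeR, and Atp5g1 alone of these did with limma on log2(FPKM + 1).

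The difference between the 2 models was tested directly over all 12 hearts, and by edgeR 0 of the 36 members passed, beside 1.65% of all 15929 genes with a higher and 2.27% with a lower change in the Myh6 model. Of the members, 18 (50%) had an unadjusted p under 0.05, beside 19.4% of all genes, and 35 of 36 estimates were lower in the Myh6 model, with a median of -0.72 against -0.04 over all genes. Cox14 came closest, with a difference of -0.96 (standard error 0.25, adjusted p = 0.0562). DESeq2 called 7 members lower in this test, namely Atp5e, Atp5j2, Atp5k, Cox14, Cox6c, Cox7b and Cox7c, beside 5.07% of all genes. Leaving out Myh6-tg replicate 1 also gave 7, beside 6.62%, Myh6-ctl replicate 3 gave 4, beside 2.32%, and EIIa-tg replicate 3 gave 1, beside 1.80%. The difference was -1.01 (standard error 0.40, adjusted p = 0.184) for Atp5g1, -0.03 (standard error 0.28, adjusted p = 0.974) for Cox15 and -0.64 (standard error 0.45, adjusted p = 0.466) for Cox19. Age, Cre line and injections differ together between the models, and their parts in these differences cannot be told apart.

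Between the control groups, at day 90 in Myh6-ctl and day 30 in EIIa-ctl, 0 members passed by edgeR and 0 by DESeq2. Of all 14990 genes, 0.02% were higher and 0.0133% lower in Myh6-ctl by edgeR, and DESeq2 called 1.85% higher and 0.867% lower. At an unadjusted p under 0.05 there were 3 members (8.33%), beside 11.3% of all genes. The members with the lowest p were Cox19 at 0.61 (standard error 0.23, adjusted p = 0.364), Cox15 at -0.38 (standard error 0.15, adjusted p = 0.401), Sco1 at -0.43 (standard error 0.18, adjusted p = 0.410) and Cox10 at -0.36 (standard error 0.18, adjusted p = 0.503). Cox19 was higher in every Myh6-ctl heart than in any EIIa-ctl heart by a margin of 36.8 to 36.9 normalised CPM. In FPKM its control groups overlapped (9.14 to 14.1 in EIIa-ctl against 13.3 to 21.1 in Myh6-ctl). Sco1, Atp5a1, Atp5b and Atp5s were lower in every Myh6-ctl heart than in any EIIa-ctl heart, in normalised CPM and in FPKM. The other tested members overlapped in normalised CPM. In FPKM, Atp5c1 (951 to 1055 in EIIa-ctl against 791 to 935 in Myh6-ctl) and Cox15 (8.32 to 9.71 against 5.79 to 7.76) were also apart. The share of all genes with control groups apart was not counted, so this list is not read as a result about the members. The median over the members was -0.14 against 0.02 over all genes, and it ran from -0.35 without Myh6-ctl replicate 2 to 0.06 without Myh6-ctl replicate 3. These 2 groups differ in age, Cre line and oil injection at once, which cannot be told apart.

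Levels of different genes were compared in FPKM. In EIIa-ctl hearts the F1 head genes ran from 188 FPKM (Atp5e) to 2207 FPKM (Atp5b), the c-ring genes from 198 (Atp5g2) to 1357 (Atp5g3), the peripheral stalk from 292 (Atp5j) to 816 (Atp5h), and the small membrane subunits from 29.8 (Atp5k) to 246 (Atp5l). The cytochrome oxidase subunits ran from 0.938 FPKM (Cox6b2) to 638 FPKM (Cox5a). Coupling factor B was at 14.7 FPKM, and the assembly factors ran from 2.36 FPKM (Sco2) to 67.7 FPKM (Cox14).

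The partners encoded in mitochondrial DNA moved with the nuclear genes in the Myh6 model. Of the 5, mt-Co3 (log2 fold change -1.76, adjusted p = 0.0166), mt-Co2 (-1.48, adjusted p = 0.0214), mt-Atp8 (-1.20, adjusted p = 0.0218) and mt-Atp6 (-1.26, adjusted p = 0.0467) fell, and mt-Co1 was at -1.57 (adjusted p = 0.0508). In the EIIa model 0 of the 5 passed, with estimates from -0.41 to -0.32. Without the mitochondrially encoded genes in the table, 15 nuclear members were again lower in the Myh6 model, the same genes.

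Other genes of the same enzymes are given by list. Of 5 ATP synthase assembly factors, 4 were lower in the Myh6 model, with the lowest adjusted p for Fmc1 (-1.60, 0.0157), Tmem70 (-1.14, 0.0165) and Atpaf1 (-1.5, 0.0171), and 2 in the EIIa model, Atpaf2 (-0.64, 0.0217) and Tmem70 (-0.50, 0.0470). Of 16 tested assembly factors of cytochrome oxidase outside the members, 7 were lower in the Myh6 model and 8 in the EIIa model, and none were higher. Lrpprc, which stabilises mitochondrial mRNAs (-1.70, adjusted p = 0.00461), Tmem177 (-1.34, adjusted p = 0.0164) and Taco1, which activates translation of mt-Co1 (-2.01, adjusted p = 0.0165), had the lowest p in the Myh6 model, and Taco1 (-1.18, adjusted p = 0.0169), Cmc2 (-0.87, adjusted p = 0.0179) and Coa5 (-0.58, adjusted p = 0.0228) in the EIIa model. Of 9 tested muscle and ubiquitous subunit genes, 4 were lower in the Myh6 model and 1, Cox7a1, in the EIIa model.

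The inhibitor of the reverse reaction of ATP synthase is listed as Atpif1 and is not among the members by its symbol. It was at 0.24 (standard error 0.16, adjusted p = 0.327) in the EIIa model and -0.34 (standard error 0.43, adjusted p = 0.626) in the Myh6 model. Myh6-tg replicate 1 had 67.3 normalised CPM, within the control range of 37.6 to 79.7, while replicates 2 and 3 had 33.1 and 24.1. Among the carriers that feed ATP synthase, 3 were tested in each model. The phosphate carrier Slc25a3 fell in the Myh6 model (-1.12, adjusted p = 0.0426) and the ADP/ATP carrier Slc25a5 in the EIIa model (-0.41, adjusted p = 0.0278). The ADP/ATP carrier Slc25a4 had a mean of 3517 normalised CPM in Myh6-ctl, against 256 for Slc25a5. Slc25a4 was at -0.51 (adjusted p = 0.0875) in the EIIa model and -1.26 (adjusted p = 0.0547) in the Myh6 model. It did not pass, although its groups did not overlap in either model. Of 12 regulators of respiratory gene expression, 3 were lower in the Myh6 model, the coactivator Ppargc1a (-2.39, adjusted p = 0.00588), the nuclear receptor Esrra (-1.16, adjusted p = 0.0196) and the mitochondrial transcription factor Tfb2m (-0.84, adjusted p = 0.0206). In the EIIa model Esrrg (-0.68, adjusted p = 0.0227), Tfb2m (-0.66, adjusted p = 0.0291) and Esrrb (-0.61, adjusted p = 0.0431) were lower.

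Cardiomyocyte markers moved in the same direction as the members. Of 11 markers, 6 were lower in the Myh6 model (median log2 fold change -1.97) and 2 in the EIIa model (median -0.78), with 0 higher in either. Their summed level was 55000 to 64500 normalised CPM in EIIa-ctl and 27300 to 47800 in EIIa-tg, with 41400 to 57800 in Myh6-ctl and 12900 to 35900 in Myh6-tg. For each 100 normalised CPM of these markers, the 38 rows together had 28.1 to 30.9 normalised CPM in the 6 control hearts, 51.4, 33.3 and 46.1 in EIIa-tg, and 27.6, 42.9 and 43.9 in Myh6-tg. Myh6-tg replicate 1 lay just below the control hearts, and the other transgenic hearts lay above them. The part of these markers in the lower member levels was not tested.

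Markers of other cells are given by list. Of 8 fibroblast markers, 4 were higher in the Myh6 model and 2 in the EIIa model, with sums of 1480 to 2160 normalised CPM in EIIa-ctl and 2740 to 3950 in EIIa-tg, with 1970 to 2530 in Myh6-ctl and 3300 to 8130 in Myh6-tg. All 7 macrophage markers were higher in the EIIa model (441 to 682 against 949 to 1240 normalised CPM) and 0 passed in the Myh6 model (847 to 1400 against 969 to 2130). Of 7 endothelial markers 3 were lower in the EIIa model and 0 in the Myh6 model, and of 5 red cell markers 1 and 3 were lower. The brain list had 1 of 2 tested markers higher in the EIIa model and 1 of 3 lower in the Myh6 model. The smooth muscle and pericyte list had 1 of 5 higher in the EIIa model, and 1 higher and 1 lower in the Myh6 model. Skeletal muscle markers summed to at most 1.41 normalised CPM, with Myh1, Myh2 and Myh4 at 0 in most hearts, and of the 3 brown fat markers, whose sum was 14.8 to 52.7, 1 of 2 tested was higher in the Myh6 model and Ucp1 was at 0 counts in all but 2 hearts. The part of these lists in the member levels was not tested.

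**Figure D4:**
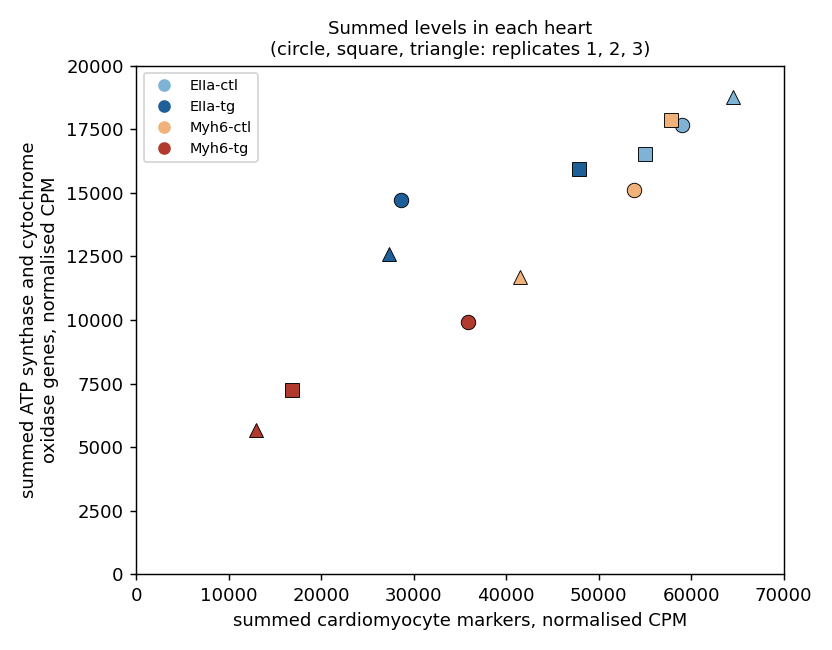
Summed level of the members (vertical axis) against the summed level of 11 cardiomyocyte markers (horizontal axis), both in normalised CPM, with 1 point per heart. Myh6-tg replicates 2 and 3 are lowest on both axes, and EIIa-tg replicates 1 and 3 lie above the control hearts relative to the markers.

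Promoters were read from the RefSeq table for GRCm38.p6, which holds 250 bases before and 50 after each start, and 32 of the 37 symbols had an entry. They were searched for 4 short motifs, whose presence was not set against the fold changes. The comparison set was every gene with a promoter entry, expressed in these hearts or not. The core of GABP and other ETS sites, CCGGAAGT on either strand, was in 5 of the 32 members (15.6%) and in 4.31% of 27025 genes, the NRF1 core GCATGCGC in 3 (9.38% against 3.05%), the core AAGGTCA of estrogen-related receptors in 4 (12.5% against 5.38%) and the YY1 core AAGATGGC in 5 (15.6% against 3.19%). Of the c-ring genes, Atp5g2 held the NRF1 core, Atp5g3 the estrogen-related receptor core and Atp5g1 none of the 4. The 30 bases around each match are given 5′ to 3′ on the strand of the gene, with the match in capitals. In Atp5g2 and Atp5k it reads as the NRF1 core on both strands, which overlap.
Atp5g2: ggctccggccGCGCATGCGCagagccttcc
Atp5g3: gttgttacaaagTGACCTTgagcgtcttcc
Atp5k: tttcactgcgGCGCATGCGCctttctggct
They lie on the minus strand at chr15:102671070-102671099, chr2:73911361-73911390 and chr5:108434430-108434459, with the capitals ending 33, 46 and 41 bases before the start. Atp5k also held AAGGTCA elsewhere in its promoter. A match of letters does not show that a factor binds there.

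Reads of some members could be shared with other genes. The strand of the reads is not given in the sources used here, and the library kit named does not mark strand in its basic form. In GENCODE M21, over 50% of the 50-base words of Sco2 (88.2%, mostly with Tymp), Cox20 (84.8%, with Hnrnpu), Cox16 (54.2%, with the read-through gene Gm20498) and the second Atp5o row also occur in transcripts of other genes, so the values of these genes are uncertain. Of the members that passed a test, Atp5o shared 41.6%, mostly with antisense Gm15976, Cox7c 22.1% with Gm10012, Atp5h 19.9% with Gm10250, Atp5f1 14.3% with Gm12231 and Atp5g1 11.1%. Atp5e, Cox14, Atp5mpl and Atp5s shared none, nor did Atp5g3, while Atp5g2 shared 38.3%, mostly with Gm10175. Cox19 shared 0.335%.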

How the data were processed

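RNA of 12 hearts was sequenced as paired-end reads from NEBNext Ultra libraries. The submitters' notes name HISAT2 2.0.4, StringTie 2.2.1 and DESeq2, with the builds GRCm39 and mm10, and the methods name GRCm38. The authors deposited raw read counts per gene and FPKM, which the authors scaled to transcript length and library size, with 1 column for each heart. Coordinates and transcripts given here are from GENCODE M21 and RefSeq, both on GRCm38, and were used for sequence only.

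Counts were tested with edgeR 4.0.16 (filterByExpr, TMM scaling, quasi-likelihood test, Benjamini-Hochberg adjustment over all genes) in R 4.3.3. Each comparison used the 6 hearts of its groups, and the difference between models used all 12. A gene passed at an adjusted p under 0.05. DESeq2 1.42.0, limma 3.58.1 on log2 FPKM, other scalings and filters, a replicate block, a sex covariate and leaving out each heart were the alternatives. The test was also run on counts simulated from the model it assumes, with dispersions taken from these data. Such a run cannot show how the test handles hearts that depart from that model. Replicate numbers were taken to pair hearts where all same-numbered hearts deviated together from their group means, which held in the Myh6 model (correlations 0.285, 0.184 and 0.173) and not in the EIIa model (0.0602, -0.0704 and -0.05). The labels do not say what a number shares. The pairing was thus read from the same counts that were tested, and the p values of the blocked fit rest on it. Replicate 1 was also the heart with Y-linked counts in each group.

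Values in each heart are given for the c-ring genes, Atp5a1, Atp5b, Cox5a, Cox5b, the 4 members with the lowest adjusted p in each comparison of 2 groups, members that passed against the common direction, and members removed by the filter. Of other lists, up to 3 genes with the lowest p are named. Members, lists and rules were chosen with earlier results of these data known.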

Additional observations from a re-analysis of the deposited data

How the results depend on the processing

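The number of members that passed moved with the tool and the hearts, while the members named in the Myh6 comparison kept their direction under the alternatives run. In the EIIa model DESeq2 called 8 members lower, beside 10.9% of all genes, and the sex covariate left 1, beside 4.82%. Limma gave 2 on log2(FPKM + 1) and 2 on log2(FPKM + 0.1), beside 5.26% and 5.05%. Without the FPKM filter 0 were lower, beside 0%, and with all 12 hearts in 1 fit 0, beside 0.32%. Higher members numbered 3, 3, 0 and 0 in the limma fits and the joint fit, beside 18.6%, 18.5%, 0.00513% and 1.1% of all genes. In the Myh6 model DESeq2 gave 24 lower, beside 12.3%, and 15 DEGs, and the joint fit 30 lower, beside 16.2%, and 14 DEGs. RLE scaling gave 0 DEGs, no filter 3 DEGs and the sex covariate 3 DEGs. Limma gave 10 lower with either pseudocount, beside 6.95% and 6.94% of all genes, and 1 higher, beside 25.7% and 25.4%. Of the 15 lower by edgeR, Atp5mpl, Atp5s, Cox15, Cox6c and Cox7b did not pass in these limma fits. Without a filter limma gave 6 lower, beside 3.87%, and 0 DEGs. The share of all genes that were DEGs was not counted in these fits. The difference test gave 7 lower with DESeq2, beside 5.07%, and 1 without the mitochondrial genes, beside 2.35%. On log2(FPKM + 1) the median of all genes moved up by 0.14 (EIIa) and 0.31 (Myh6) against edgeR. The causes were not tested.

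With the replicate number as a block, 23 members were lower in the Myh6 model, beside 11.2% of all genes, and 5 were DEGs, for which the share of all genes was not counted. There the numbers were taken to pair hearts. In the EIIa model, where they were not, 0 were lower and 0 higher, beside 0% and 0.00671%. In the difference test 1, Cox14, was lower, beside 2.36%. In the control comparison 0 passed with or without the block.

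Leaving out each heart gave 0 to 9 lower (0% to 13.8% of all genes), 0 to 1 higher (0% to 12.9%) and 0 to 2 DEGs in the EIIa model. In the Myh6 model it gave 2 to 24 lower (2.58% to 13.9%) and 0 to 4 DEGs. For the difference it gave 0 to 7 lower (1.01% to 6.62%). The share of all genes that were DEGs was not counted with a heart left out.

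Signs that turned belonged to estimates near 0. Atp5g2 in the EIIa model was at 0.0918, 0.0922 and 0.0918 in the limma fits and between -0.203 and 0.0309 with a heart left out. The difference between models for Sco1 was 0.0762, 0.0759 and 0.0762 in the limma fits, and that for Cox15 was 0.1742, 0.1898 and 0.1742 there and -0.1985 to 0.1813 with a heart left out. Between controls, Atp5k was at 0.0016 with DESeq2, 0.0015 with RLE scaling and 0.0034 with a CPM filter. With a heart left out, the control estimates ran from -0.4559 to 0.2317 for Atp5k, -0.2835 to 0.1303 for Atp5e, -0.237 to 0.2084 for Atp5g2, -0.5407 to 0.05 for Cox5a, -0.3708 to 0.0221 for Cox5b and -0.1946 to 0.1351 for Cox14. From counts, the EIIa-ctl shares were 34.2% for Atp5g1 and 57.4% for Atp5g3.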
